A study of Rattus norvegicus with 32 samples.

Results

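The genes described here are 34 oligodendrocyte and myelin genes, taken from a written list by matching each symbol to the gene column of the expression table. All 34 were found among its 22587 genes. The matching rule used no expression value, but the members were chosen with earlier results of these data known. They were followed in the brainstem and hypothalamus of Wistar Kyoto rats aged 13 weeks. The rats had been sham-operated or had both adrenal glands removed (ADREX), and spent 4 hours in filtered air or in ozone (0.8 ppm) before the tissue was taken and frozen. This gave 8 groups of 4 mRNA-seq libraries: sham air, sham ozone, ADREX air and ADREX ozone, each in brainstem and in hypothalamus. All rats were of 1 strain and age, and all had surgery, so no group represents an unoperated animal. Whether adrenalectomized rats were given replacement hormone is not stated in the labels. Nothing in the labels says which libraries come from separate animals, so each p-value speaks only of library-to-library spread, which may be technical.

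Oligodendrocytes wrap axons of the central nervous system in myelin, a membrane rich in galactolipids and in a small set of abundant proteins. They arise from precursor cells that carry the receptor Pdgfra and the proteoglycan Cspg4, and the transcription factors Olig2, Sox10 and Myrf drive them from precursor to myelinating cell. The brainstem is crossed by large myelinated tracts, while the hypothalamus is mostly grey matter. Adrenal corticosteroids and catecholamines, which adrenalectomy removes, are released during inhaled irritant exposure, and oligodendrocytes carry the glucocorticoid receptor. The members were grouped as myelin structural and junction genes (7), myelin surface and cytoskeletal genes (7), genes of lipid synthesis and lipid enzymes (4), transcription factors (5), genes of node and axon contact (2), receptors, carriers and enzymes (6), and precursor genes (3).

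Library depth ran from 6436458 to 12391173 reads assigned to genes, and all 34 members passed the filter on low values in every fit. The tissue labels fitted regional markers: a list of brainstem genes summed to 628 to 796 RPM (reads scaled to the same library total) in brainstem libraries and 12.2 to 41.3 RPM in hypothalamus libraries, and a hypothalamic list to 626 to 837 against 26.6 to 95.7 RPM. In 3 libraries more than 25% of genes lay over 0.5 log2 from the rest of their group: brainstem ADREX ozone 81 (45.3% of genes), hypothalamus ADREX ozone 84 (28.5%) and hypothalamus sham ozone 18 (26%). Liver transcripts, which brain tissue should lack, passed 2000 RPM in sham ozone 18 of the brainstem and in 3 libraries of the hypothalamus, numbered 2 (sham air), 18 (sham ozone) and 68 (ADREX air). Values below are normalized counts, differences are on the log2(normalized count + 1) scale with their SE, and a gene was called at a Benjamini-Hochberg adjusted p under 0.05 from limma across all genes of a fit. In bulk tissue, fewer oligodendrocytes and less RNA per oligodendrocyte cannot be told apart.

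Almost the whole set was lower in hypothalamus than in brainstem, and Pdgfra and Cspg4 were the exceptions. Averaged over the 4 conditions, 32 of 34 members were called lower in hypothalamus and none higher, beside 54% of all tested genes called in either direction and 26.9% called lower. The members' median difference was -1.01 log2. They took 2.48 to 3.18% of the reads in brainstem libraries and 1.17 to 1.63% in hypothalamus libraries. Mbp, encoding myelin basic protein, which compacts the membrane, took 0.878 to 1.66% and 0.390 to 0.765% by itself. Markers of some other cell types were lower in hypothalamus too: 10 of 10 endothelial, 7 of 12 astrocyte and 6 of 10 mural and meningeal markers were called lower. The astrocyte list summed to 5233 to 6394 RPM in brainstem and 3548 to 4107 RPM in hypothalamus, and the endothelial list to 339 to 601 and 268 to 489 RPM. The microglia list overlapped (331 to 386 and 326 to 402 RPM). Neuron and astrocyte genes went in both directions. In sham air, Syt1 averaged 5353 in brainstem and 16795 in hypothalamus, and Nefl 17069 and 4930. Slc1a3, an astrocyte marker, averaged 1333 and 2252, and Aqp4, another, 14317 and 7182. Their part in the members' difference was not tested. In 18 of 34 members, no hypothalamus library reached the lowest of the 16 brainstem libraries. The share of all genes with this pattern was not counted, so the count is a description only. With all values rescaled so that the 34 genes' median log2 deviation was 0 in each library, 13 were called lower and 13 higher. That scaling moved the median of all genes by 0.97 log2. As it centres these same genes, a near even split follows from the scaling itself and does not test the tissue difference.

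The median tissue difference is given by role as a description, since differences between roles were not tested. Among the lipid genes the median was -1.58 log2, with a range of -1.94 to -1.15. Structural and junction genes had a median of -0.99 and ranged over -1.50 to -0.29. Enpp6, a choline-specific phosphodiesterase of newly forming oligodendrocytes, had a lowest, median and highest value of 268, 395 and 501 over the brainstem libraries and 56.9, 98.1 and 127 over the hypothalamus libraries. These do not overlap, and the difference of -1.94 ± 0.08 (3.83-fold, adjusted p = 7.43e-19) had the largest size of the 34. Ugt8, which makes galactosylceramide, fell by 1.64 ± 0.07 and Fa2h, which hydroxylates its fatty acids, fell by 1.52 ± 0.05. Among structural genes Mbp read 67791, 109843 and 144578 (lowest, median, highest) in brainstem and 31432, 39070.2 and 67154 in hypothalamus, a fall of 1.43 ± 0.08 (2.69-fold, adjusted p = 7.72e-16). The highest hypothalamus value was that of ADREX ozone 84 and the lowest brainstem value that of ADREX ozone 81, and even these did not overlap. Gjb1, the connexin of myelin gap junctions, fell by 1.50 ± 0.08. Surface and cytoskeletal genes had a median of -1.12, with Ermn, a cytoskeletal protein, at -1.51, Mag, an adhesion molecule facing the axon, at -1.19, Cnp, a myelin phosphodiesterase, at -1.15 and Mog, an outer surface protein, at -1.04.

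Transcription factors had a median of -0.84 log2 (range -1.06 to -0.61). The receptors, carriers and enzymes had a median of -0.93 (range -1.19 to -0.19). Both ranges overlapped that of the structural genes. Myrf, Sox10 and Olig2 differed by -0.97, -0.84 and -0.69. Enpp2, the enzyme of the lipid group that makes lysophosphatidic acid, and Ndrg1 differed by -1.15 and -1.08. The smallest called differences were those of Gpr17, a receptor of precursors committed to differentiate (-0.32 ± 0.11, adjusted p = 0.0137), Tspan2, a tetraspanin of myelin (-0.29 ± 0.09, adjusted p = 0.00904), and Car2, the carbonic anhydrase of oligodendrocytes (-0.19 ± 0.04, adjusted p = 0.000141). Pdgfra averaged 850.3 ± 111 in brainstem and 840.0 ± 81.2 in hypothalamus (SD, n = 16), a difference of -0.01 ± 0.06 with a 95% interval of -0.13 to 0.11. Cspg4 averaged 289.7 ± 47.8 and 281 ± 29.4, a difference of -0.03 ± 0.07 with an interval of -0.18 to 0.11. Neither was called (adjusted p = 0.882 and 0.711), and both intervals lie within 0.2 log2 of 0. Of 16 other listed precursor genes, 8 were called lower and 3 higher in hypothalamus, with a median of -0.36 log2. Both genes are also made outside the lineage, in mural cells and meningeal fibroblasts, whose marker list summed to 202 to 488 RPM in brainstem and 169 to 281 RPM in hypothalamus.

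**Figure D1:**
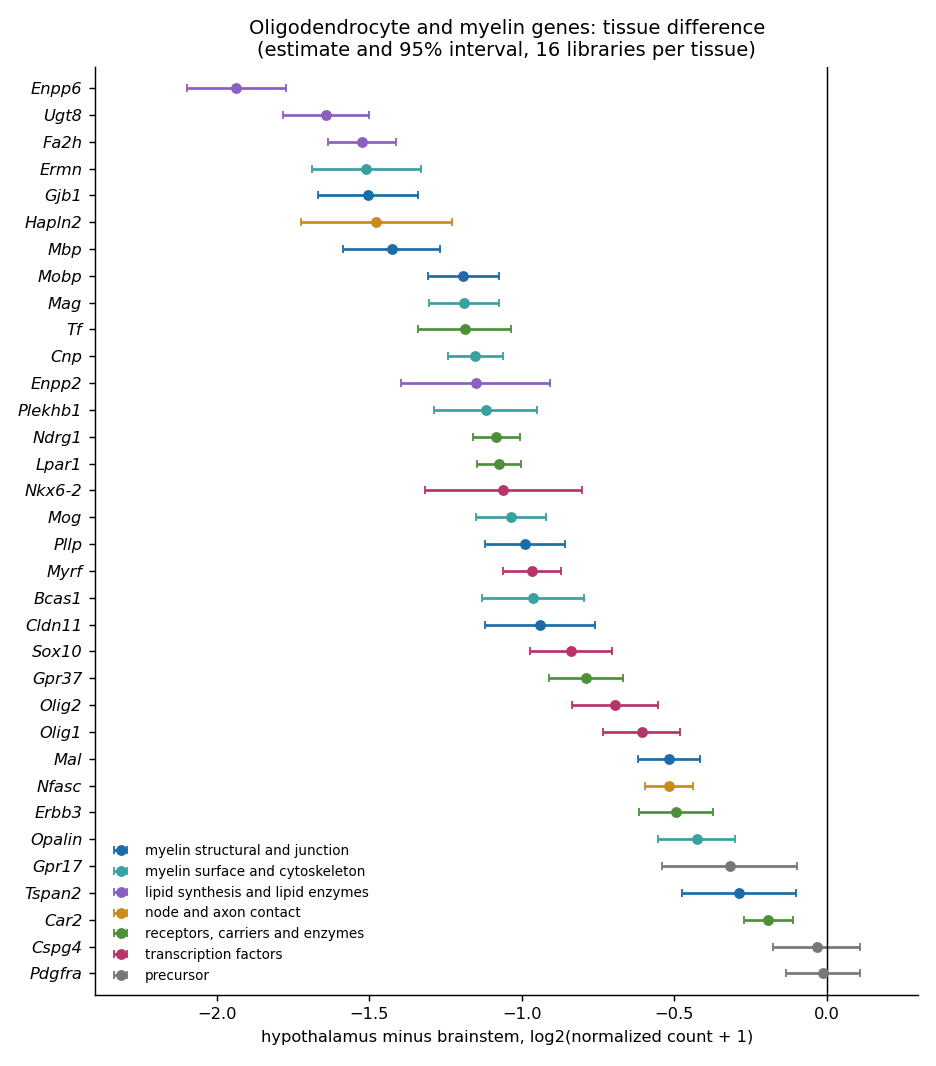
Difference between hypothalamus and brainstem for the 34 genes, averaged over the 4 conditions (x axis, log2(normalized count + 1); points are estimates, bars 95% intervals, colours roles, 16 libraries per tissue). The lipid genes Enpp6, Ugt8 and Fa2h sit farthest to the left, and Pdgfra and Cspg4 sit at 0.

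The tissue difference varied between conditions for some genes, a variation that was not tested. Tspan2 differed by -0.59 log2 between tissues in sham air and by 0.05 in ADREX ozone, and Mbp by -1.73 in sham air and -1.12 in ADREX ozone. The ADREX ozone values rest on brainstem 81 and hypothalamus 84. Without these libraries Tspan2 differed by -0.38 and Mbp by -1.49, beside -0.34 and -1.50 in ADREX air. Myelin of peripheral nerve shares Mbp, Mag, Mal, Pllp, Gjb1, Sox10 and Erbb3 with central myelin, so the Schwann cell markers were examined beside the tissue result. They summed to 168 to 276 RPM in brainstem and 127 to 184 RPM in hypothalamus. Of these markers, Ncmap was at 0 in all hypothalamus libraries. The part of Schwann cells in the tissue difference was not tested.

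Promoter sequences were examined for motifs of the lineage's transcription factors. The promoters of 23 of the 34 members matched the RefSeq table of the rat build GRCr8, each 300 bases long from 250 before to 50 after the gene start. The heptamer CTGGCAC, the core of the motif that Myrf binds, was searched on both strands. It was found in 7 of 23 member promoters (30.4%), those of Mag, Cnp, Opalin, Mal, Enpp6, Olig2 and Hapln2, and in 4.75% of all 33469 promoters in the table. ACAAAG, a Sox motif, was in 7 (30.4%, beside 18.8% of all) and CAGCTG, an E-box, in 6 (26.1%, beside 15.1%). The palindromic glucocorticoid response element was in none of the 23 and in 0.0149% of all. A match describes these letters only. Of the 7 promoters with the Myrf heptamer, 3 were chosen for printing after the values were seen, as a transcription factor, a surface and a structural gene that are called in the comparisons below, where Cnp, not printed, is called as well. Olig2 lies on the plus strand, chr11:43961335-43961634, and Opalin and Mal on the minus strand, chr1:249858141-249858440 and chr3:135341374-135341673. Capitals mark GTGCCAG, the heptamer as read from the other strand, which begins 34, 17 and 126 bases before the gene start in the order printed.
Olig2: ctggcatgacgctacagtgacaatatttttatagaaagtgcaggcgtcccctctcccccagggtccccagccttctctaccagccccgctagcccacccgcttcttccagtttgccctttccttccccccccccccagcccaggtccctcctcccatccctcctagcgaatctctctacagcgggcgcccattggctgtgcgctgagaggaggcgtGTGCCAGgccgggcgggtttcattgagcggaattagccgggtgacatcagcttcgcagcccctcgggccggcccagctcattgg
Opalin: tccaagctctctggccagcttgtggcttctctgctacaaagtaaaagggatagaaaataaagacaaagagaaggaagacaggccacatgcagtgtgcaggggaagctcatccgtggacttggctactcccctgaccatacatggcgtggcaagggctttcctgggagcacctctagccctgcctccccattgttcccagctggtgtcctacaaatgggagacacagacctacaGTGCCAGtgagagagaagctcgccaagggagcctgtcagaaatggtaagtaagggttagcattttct
Mal: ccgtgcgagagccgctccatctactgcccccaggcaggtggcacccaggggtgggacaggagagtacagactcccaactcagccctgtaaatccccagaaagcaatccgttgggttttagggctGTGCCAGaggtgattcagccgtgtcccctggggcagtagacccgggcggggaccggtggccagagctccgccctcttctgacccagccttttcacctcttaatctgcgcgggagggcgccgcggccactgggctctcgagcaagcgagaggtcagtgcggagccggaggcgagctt

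In the brainstem of sham rats, the lineage transcription factor Olig2, the neuregulin receptor Erbb3 and the carbonic anhydrase Car2 were lower after ozone, and no member was called higher. The 3 called members stand beside 0.979% of all genes called in this comparison (0.583% higher and 0.396% lower). Another 22 members had a negative difference without passing, giving 25 of 34 below 0 and a median of -0.10 log2 beside -0.0026 over all genes. In 10 members every ozone library was below every air library and in 2 every ozone library was above, beside 3.69% and 3.49% of all genes. By unadjusted p under 0.05, 12 members passed, beside 7.7% of all genes.

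Olig2 read 675, 588, 609.9 and 589 in the 4 sham air libraries and 396, 333, 492 and 418 in the 4 sham ozone libraries of the brainstem. Every ozone library was below every air library, and Olig2 fell by 0.60 ± 0.11 log2 (95% interval -0.84 to -0.36, adjusted p = 0.0116). Erbb3, through which neuregulin acts on the lineage, read 671, 651, 718 and 635 in air and 429, 548, 413 and 379 in ozone. The groups again did not overlap, with sham ozone 18 the highest of the ozone libraries, and Erbb3 fell by 0.61 ± 0.12 (adjusted p = 0.0155). Car2 read 2848, 2575, 2566 and 2548 in air and 2077, 1888, 2008 and 1929 in ozone, with no overlap, and fell by 0.41 ± 0.08 (adjusted p = 0.0136). The nearest uncalled members were Opalin (-0.58 ± 0.15, adjusted p = 0.0828), Fa2h (-0.41 ± 0.13, 0.246) and Sox10 (-0.40 ± 0.13, 0.276). Opalin, a surface protein of paranodal loops, read 2814, 2978, 3352 and 2831 in air and 2126, 1924, 2032 and 1942 in ozone, also without overlap.

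Of the 12 genes given whatever their p, 10 differed by 0.20 log2 or less in the same libraries. Mbp differed by -0.16 ± 0.17 log2, Mag by 0.08 ± 0.12, Mog by -0.07 ± 0.13 and Cnp by -0.05 ± 0.09. Myrf differed by 0.08 ± 0.08, Ndrg1 by 0.03 ± 0.07 and Enpp2 by -0.10 ± 0.11. Pdgfra, Cspg4 and Gpr17 differed by 0.20 ± 0.13, -0.01 ± 0.16 and -0.07 ± 0.22. None of these 10 passed. Other uncalled myelin genes differed by more, among them Gjb1 (-0.45 ± 0.15), Pllp (-0.29 ± 0.12) and Ermn (-0.28 ± 0.19), and the median half-width of the members' 95% intervals was 0.28 log2, so changes of that size could go uncalled. Markers of blood vessel endothelium were lower as well: 3 of 10 were called lower, and the list summed to 447 to 548 RPM in sham air and 339 to 419.8 RPM in sham ozone. No astrocyte, neuron, microglia or Schwann cell marker was called. The part of these cell types in the result was not tested.

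The 3 brainstem calls depended on which libraries were included. The count fell to 0 without sham air 1 and to 1 without sham ozone 17 or without sham ozone 20. Erbb3 lost its call without sham air 1 or 3, or sham ozone 17, 19 or 20 (adjusted p 0.0554 to 0.0809), Olig2 without sham air 1, or sham ozone 17 (adjusted p 0.0517 to 0.0554) and Car2 without sham air 1, or sham ozone 20 (adjusted p 0.0631 to 0.0645), with the direction kept each time. Sox10 read 501, 755, 492 and 473 in the ozone libraries, and without sham ozone 18, the high one and the liver-rich one, it was called lower (-0.56, adjusted p = 0.0185). Scaling on the listed genes ended all 3 calls (adjusted p = 0.069, 0.0916 and 0.202 for Olig2, Erbb3 and Car2).

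In the hypothalamus of sham rats, Olig2, Erbb3 and Car2 were lower after ozone, as in the brainstem, Fa2h was also lower, and Mal, a proteolipid that sorts membrane to myelin, was higher. These 5 called members stand beside 1.59% of all genes called, 0.946% higher and 0.642% lower. The members' median was -0.07 log2, with 15 above 0 and 19 below. In 4 members every ozone library was above every air library and in 7 every one was below, beside 4.79% and 4.83% of all genes. By unadjusted p under 0.05, 13 members passed, beside 12.6% of genes.

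Olig2 read 416, 345, 354 and 394 in hypothalamus sham air and 220.5, 187, 256 and 233 in sham ozone. The lowest air library stood well above the highest ozone library, and Olig2 fell by 0.75 ± 0.16 log2 (95% interval -1.09 to -0.42, adjusted p = 0.0215). Erbb3 read 519.8, 455, 488 and 467 in air and 313, 431, 276 and 287 in ozone, with sham ozone 18 again the highest ozone library. It fell by 0.58 ± 0.12 (adjusted p = 0.018) with no overlap. Car2 read 2310.3, 2236, 2221 and 2489.7 in air and 1787, 1405, 1587 and 1517 in ozone, did not overlap and fell by 0.56 ± 0.09 (adjusted p = 0.00268). Fa2h, the lipid hydroxylase, read 245, 224, 257 and 232 in air and 203, 175, 179 and 182 in ozone. All 4 ozone values were below all 4 air values, and Fa2h fell by 0.37 ± 0.08 (adjusted p = 0.0248). Mal read 3313, 3546, 3292 and 3423 in air and 4241, 3981, 4138 and 4173 in ozone. It was the called member that rose, by 0.28 ± 0.06 (95% interval 0.16 to 0.41, adjusted p = 0.0224), with no overlap.

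Other genes of the differentiated cell were split in direction. Opalin (-0.35 ± 0.09, adjusted p = 0.0571), Ugt8 (-0.30 ± 0.08, 0.0687) and Ermn (-0.54 ± 0.14, 0.0786) were below 0 and missed the threshold. Mobp, a basic protein of compact myelin, was above 0 (0.34 ± 0.10, 0.106), as were Ndrg1 (0.27 ± 0.08), Mag (0.27 ± 0.10) and Mbp (0.21 ± 0.13). Mog, Cnp, Myrf, Sox10 and Enpp2 differed by -0.08, -0.14, 0.01, -0.16 and -0.07. The precursor genes Pdgfra, Cspg4 and Gpr17 differed by 0.06, 0.14 and -0.15, none called. Endothelial markers moved with this comparison too: 3 of 10 were called lower, and the list summed to 377 to 429 RPM in sham air and 268 to 291 RPM in sham ozone. Of 12 astrocyte markers, 1 was called higher. Their part in the members' changes was not tested.

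Car2 kept its call in every alternative tried in hypothalamus sham rats (adjusted p 7.16e-07 to 0.0154). The count of 5 fell to 1 without sham air 1, sham air 3 or sham ozone 20, and to 2 without sham air 4, sham ozone 17 or sham ozone 19. Erbb3 lost its call without sham air 1 or 3, or sham ozone 17, 19 or 20 (adjusted p 0.0581 to 0.0678). Olig2 lost it without sham air 1, 3 or 4, or sham ozone 17, 18 or 20 (adjusted p 0.052 to 0.0746), Fa2h without sham air 1, 3 or 4, or sham ozone 18, 19 or 20 (adjusted p 0.0597 to 0.0975) and Mal without sham air 1, 3 or 4, or sham ozone 17, 19 or 20 (adjusted p 0.056 to 0.0842). Quantile normalization also ended the Mal call (adjusted p = 0.239), and leaving out the liver-rich libraries ended those of Fa2h (adjusted p = 0.078) and Olig2 (adjusted p = 0.0585). Fitting the compared groups alone ended those of Erbb3 (adjusted p = 0.0705) and Fa2h (adjusted p = 0.0795). Scaling on the listed genes gave 3 higher (Mal, Mobp, Ndrg1) and 3 lower (Car2, Erbb3, Olig2).

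**Figure D2:**
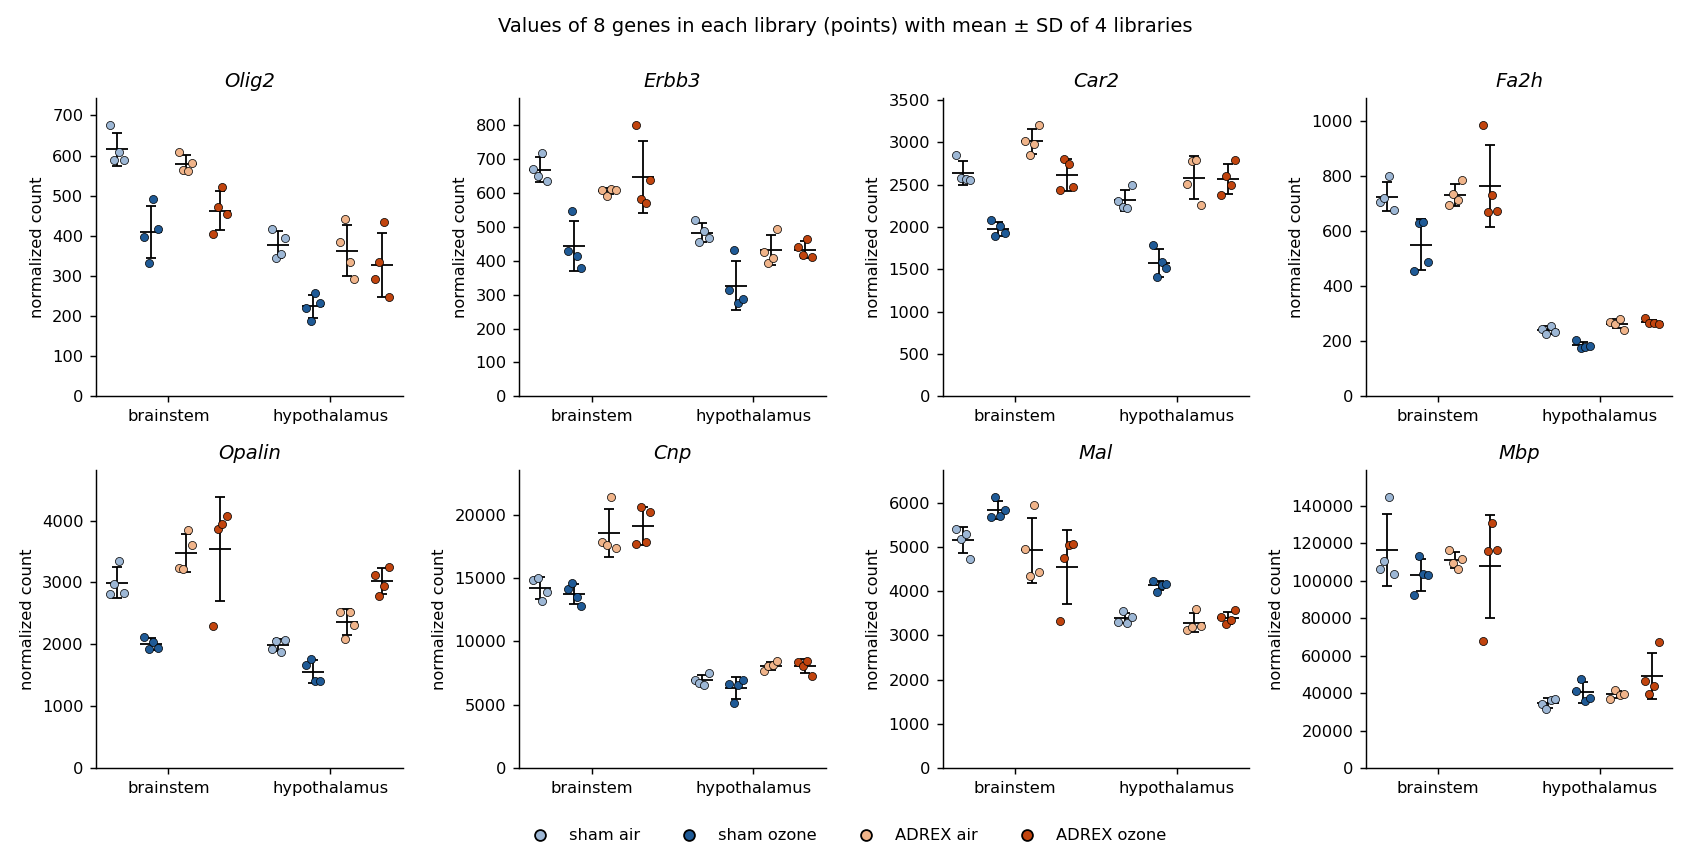
Normalized counts of 8 member genes in each library (points) with mean ± SD of the 4 libraries of a group (bars), by tissue and condition. The sham ozone libraries are the lowest group for Olig2, Erbb3 and Car2 in both tissues, and the highest for Mal.

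The ozone response in sham rats was compared directly between the tissues. None of the 34 members, and 0% of all genes, was called for a difference by limma, and 2 members passed at an unadjusted p under 0.05, beside 2.86% of genes. These were Ndrg1 (0.24 ± 0.11, hypothalamus minus brainstem) and Mobp (0.34 ± 0.16), followed by Mbp (0.37 ± 0.22), each at an adjusted p of 0.983. edgeR and DESeq2 on the recovered reads also called no member. Fa2h and Mal, called in hypothalamus, were therefore not shown to respond differently in brainstem, where they differed by -0.41 ± 0.13 and 0.18 ± 0.13.

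In adrenalectomized rats, no member was called between ozone and air by limma in either tissue, and 0% of all genes were called in either. In brainstem 2 members passed at an unadjusted p under 0.05, beside 5.91% of genes, and the smallest p-values were those of Olig2 (-0.33 ± 0.11), Car2 (-0.21 ± 0.08) and Ermn (-0.37 ± 0.19), each at an adjusted p of 0.801. Olig2 read 609, 563, 562 and 581 in ADREX air and 405, 472, 521 and 454 in ADREX ozone. Every ozone library was below every air library, as in sham rats, and 2 members in all had that pattern, beside 1.13% of genes, while none had the opposite one, beside 1.06%. Car2 read 3013, 2844, 2983 and 3200.0 in ADREX air and 2431, 2807, 2749 and 2467 in ADREX ozone, again without overlap. Erbb3, the other gene called in sham brainstem, differed by 0.08 ± 0.12. edgeR and DESeq2 called no member here.

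In the hypothalamus of adrenalectomized rats 4 members passed at an unadjusted p under 0.05, beside 8.03% of genes, with Opalin (0.36 ± 0.09), Gpr37 (0.32 ± 0.11) and Tspan2 (0.47 ± 0.16) at the smallest p-values and an adjusted p of 0.586 each. Opalin read 2519, 2093, 2522 and 2316 in ADREX air and 3126, 2779.5, 2949 and 3254 in ADREX ozone, so that every ozone library was higher. In 4 members the ozone libraries lay above the air libraries, beside 1.8% of genes, and in none below, beside 1.84%. Olig2 read 385, 441, 335 and 292 in air and 292, 335, 435 and 247 in ozone, with wide overlap. Car2 read 2508, 2774, 2786 and 2258 in ADREX air and 2381, 2604, 2499 and 2795 in ADREX ozone, also overlapping. Mal, Fa2h and Erbb3 differed by 0.05, 0.03 and 0.01. In brainstem Mbp, Mag, Mog, Cnp, Myrf and Sox10 differed by -0.08, 0.22, -0.21, 0.04, 0.05 and -0.17, and in hypothalamus by 0.30, 0.18, -3.1e-05, -0.0069, -0.07 and 0.13. Pdgfra, Cspg4, Gpr17, Ndrg1 and Enpp2 differed by 0.17, 0.08, 0.0028, 0.05 and -0.05 in brainstem and by -0.0021, 0.04, 0.17, 0.0078 and -0.28 in hypothalamus. None of these passed the test.

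**Figure D3:**
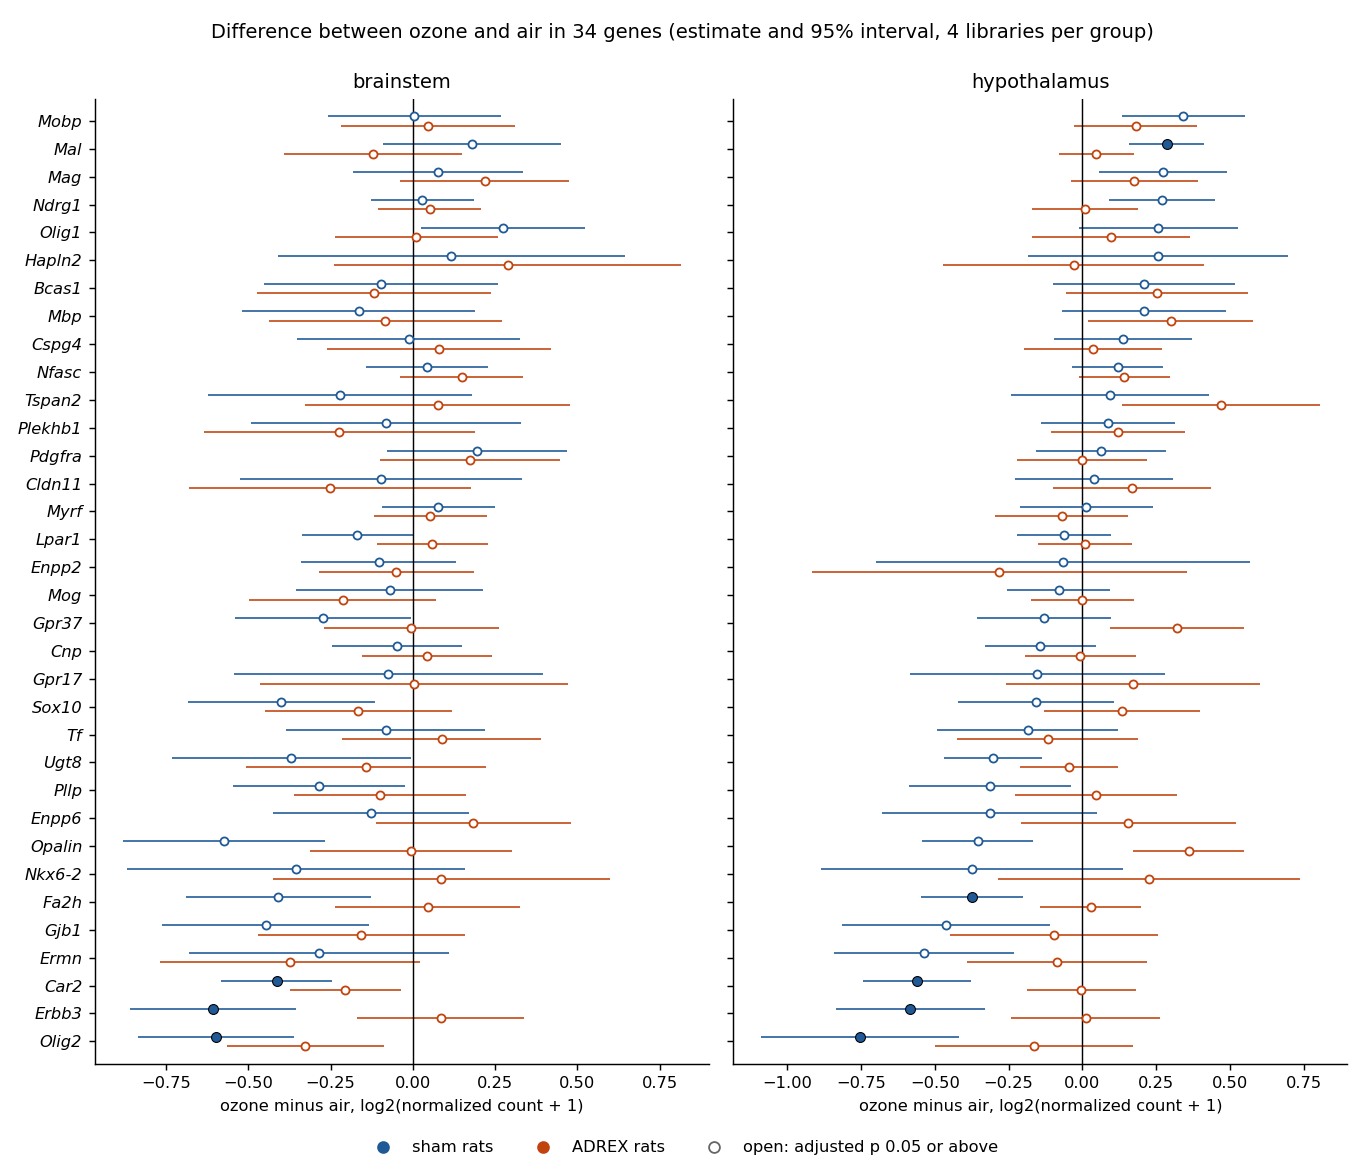
Ozone minus air for the 34 genes in sham (blue) and ADREX (orange) rats, in brainstem and hypothalamus (x axis, log2(normalized count + 1); points are estimates, bars 95% intervals, filled points adjusted p under 0.05). Filled points appear in sham rats, 3 in brainstem and 5 in hypothalamus, and none in ADREX rats.

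The difference between the ozone responses of ADREX and sham rats was tested for every gene, and in hypothalamus it was called for Opalin. This call stands beside 0.138% of all genes, 0.0207% in the same direction, and 10 members passed at an unadjusted p under 0.05, beside 4.4%. Hypothalamic Opalin read 1924, 2061, 1881 and 2074 in sham air and 1665, 1766, 1407 and 1399 in sham ozone, all 4 ozone values lower. In ADREX rats it read 2519, 2093, 2522 and 2316 in air and 3126, 2779.5, 2949 and 3254 in ozone, all 4 ozone values higher. The group means were 1985 ± 97.0, 1559 ± 185, 2362 ± 204 and 3027 ± 207 (SD, n = 4). The responses were -0.35 ± 0.09 in sham and 0.36 ± 0.09 in ADREX, and they differed by 0.71 ± 0.13 (95% interval 0.45 to 0.98, adjusted p = 0.0229). The call was lost without sham air 1, 2 or 4, or sham ozone 19 or 20, or ADREX air 66 or 68, or ADREX ozone 81 or 83 (adjusted p 0.0508 to 0.0859), and under scaling on the listed genes (adjusted p = 0.0752). Without sham ozone 18 the count was 2. The next members were Car2 (0.56 ± 0.12, adjusted p = 0.135), Erbb3 (0.59 ± 0.17, 0.385) and Fa2h (0.40 ± 0.11, 0.391), which did not pass.

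In brainstem limma called no member for a difference between the responses, beside 0.201% of genes (0.0486% higher, 0.153% lower), and 3 members passed at an unadjusted p under 0.05, beside 5.3%. The smallest p-values were those of Erbb3 (0.69 ± 0.17, adjusted p = 0.163), Opalin (0.57 ± 0.21, 0.656) and Fa2h (0.45 ± 0.19, 0.838). Erbb3 read 609, 592, 610.2 and 608 in brainstem ADREX air and 799, 581, 571 and 637 in ADREX ozone, with ADREX ozone 81 the highest. DESeq2 on the recovered reads called 1 member, and limma called 1 without sham ozone 18 and 1 without ADREX ozone 81. Olig2, called lower after ozone in sham rats of both tissues, differed between the responses by 0.27 ± 0.16 in brainstem (adjusted p = 0.994) and 0.59 ± 0.22 in hypothalamus (adjusted p = 0.864). Its loss of a call after adrenalectomy was therefore not shown to be a different response.

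In air, adrenalectomized and sham rats did not differ past the test in any member. limma called 0 members in brainstem (0% of genes) and 0 in hypothalamus (0.0138% of genes, 0.0069% in each direction). At an unadjusted p under 0.05, 3 members passed in each tissue, beside 3.78% of genes in brainstem and 5.57% in hypothalamus. In brainstem Cnp (0.38 ± 0.09, adjusted p = 0.558), Ermn (0.54 ± 0.19) and Car2 (0.19 ± 0.08) had the smallest p-values. Cnp read 14839, 14970.2, 13176 and 13874 in brainstem sham air and 17852, 17625, 21392 and 17327 in ADREX air, all ADREX values higher, and DESeq2 called it (log2 0.38, adjusted p = 0.0192). Ermn read 2227, 2306, 2271 and 2270.2 in sham air and 5805, 2590.2, 2929 and 2652 in ADREX air, and its ADREX mean rests on the high library, ADREX air 65. In hypothalamus Mog (0.26 ± 0.08, adjusted p = 0.768), Opalin (0.25 ± 0.09, 0.794) and Cnp (0.22 ± 0.09, 0.834) had the smallest. All 7 surface and cytoskeletal members lay above 0 there, from 0.09 to 0.28 log2. In 5 hypothalamus members every ADREX library was above every sham library, beside 2.73% of genes, and in none below, beside 2.38%. In brainstem 4 were above and 1 below, beside 1.65% and 1.64%. edgeR called no member in either tissue.

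For the remaining genes in air, Mbp, Mag, Myrf, Olig2 and Sox10 differed between ADREX and sham by -0.05, -0.06, 0.03, -0.09 and 0.12 in brainstem. In hypothalamus they differed by 0.18, 0.16, -0.09, -0.07 and 0.15. The 95% intervals for Olig2, the regulator lower after ozone in sham rats, ran over -0.32 to 0.15 and -0.40 to 0.27. Pdgfra, Cspg4 and Gpr17 differed by 0.05, -0.0035 and 0.29 in brainstem and by -0.03, 0.13 and -0.08 in hypothalamus. Ndrg1 differed by -0.15 and -0.09, Enpp2 by 0.22 and 0.59 (the second 0.21 without ADREX air 67), and brainstem Mog by 0.21.

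Under ozone, members were called between ADREX and sham rats in both tissues. In hypothalamus 9 members were called higher in ADREX rats (Opalin, Car2, Fa2h, Gpr37, Ugt8, Tspan2, Ermn, Mog and Cnp) and 2 lower (Mal and Ndrg1), beside 2.24% of all genes called, 1.04% higher and 1.2% lower. The members' median was 0.33 log2 beside 0.0054 over all genes, 27 of 34 were above 0 and 21 passed at an unadjusted p under 0.05, beside 12% of genes. In 10 members every ADREX library was above every sham library and in 2 every one was below, beside 3.26% and 3.38% of genes. By role, 4 of 7 surface and cytoskeletal genes and 2 of 4 lipid genes were called higher. Of 7 structural genes 1 was called higher and 1 lower, and of 6 receptors, carriers and enzymes 2 were called higher and 1 lower. No transcription factor and no precursor gene was called. The comparison uses the same sham ozone libraries as the ozone comparison in sham rats, so opposite signs in both are not independent observations.

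Hypothalamic Opalin, whose values are given above, ranged over 1399 to 1766 in sham ozone and 2780 to 3254 in ADREX ozone and rose by 0.96 ± 0.09 log2 (95% interval 0.77 to 1.15, adjusted p = 9.55e-06). Car2 read 1787, 1405, 1587 and 1517 in sham ozone and 2381, 2604, 2499 and 2795 in ADREX ozone, without overlap, and rose by 0.71 ± 0.09 (adjusted p = 0.000165). Fa2h read 203, 175, 179 and 182 in sham ozone and 283, 264, 265 and 264 in ADREX ozone, without overlap, and rose by 0.54 ± 0.08 (adjusted p = 0.00102). These genes of surface, ion handling and lipid synthesis kept their calls in every alternative tried in this comparison (adjusted p 1.48e-21 to 0.00157, 7.33e-12 to 0.00599 and 6.45e-06 to 0.0273). Gpr37, an orphan receptor of maturing oligodendrocytes, read 2133, 2406, 1904 and 1902 in sham ozone and 2874, 2639, 2789 and 3861 in ADREX ozone. Its highest value was ADREX ozone 84, and the groups did not overlap (0.53 ± 0.11, adjusted p = 0.0107).

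The other called hypothalamic genes changed by less or varied more between libraries. Ugt8, of galactolipid synthesis, read 1257, 1216, 1221 and 1397 in sham ozone and 1743, 1403, 1691 and 1638 in ADREX ozone and rose by 0.34 ± 0.08 (adjusted p = 0.0268). Tspan2 read 2635, 2996, 2004 and 2151 in sham ozone and 3602, 3187, 3679 and 5333 in ADREX ozone and rose by 0.68 ± 0.16 (adjusted p = 0.0298), again with ADREX ozone 84 the highest. Ermn read 644, 473, 719 and 689 in sham ozone and 895, 936, 1141 and 829 in ADREX ozone and rose by 0.60 ± 0.14 (adjusted p = 0.0364). None of these 3 overlapped between the groups. Cnp read 6669, 5102, 6525 and 6977 in sham ozone and 8353, 8089, 8434 and 7243 in ADREX ozone, without overlap (0.35 ± 0.09, adjusted p = 0.0466). Mog read 2027, 1616, 1754 and 1713 in sham ozone and 2329.8, 2002, 2330.1 and 2320.4 in ADREX ozone, and here the highest sham library was above the lowest ADREX library (0.34 ± 0.08, adjusted p = 0.0395). Of the genes that fell, Mal read 4241, 3981, 4138 and 4173 in sham ozone and 3418, 3250.4, 3351 and 3570.3 in ADREX ozone and fell by 0.28 ± 0.06 (adjusted p = 0.0173). Ndrg1 read 2605, 2292, 2622 and 2416 in sham ozone and 1918, 1764, 1934 and 2146 in ADREX ozone and fell by 0.36 ± 0.08 (adjusted p = 0.0336). Neither overlapped.

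Outside the calls, Pllp, a proteolipid of myelin, was nearest to the threshold (0.51 ± 0.13, adjusted p = 0.052), followed by Erbb3 (0.43 ± 0.12, 0.0828), Sox10 (0.44 ± 0.12, 0.0836) and Olig2 (0.52 ± 0.16, 0.12). Mbp, Mag, Myrf and Enpp2 differed by 0.27 ± 0.13, 0.06 ± 0.10, -0.17 ± 0.11 and 0.37 ± 0.30, and Enpp2 by 0.12 without ADREX ozone 82 and 0.22 without sham ozone 18. The precursor genes Pdgfra, Cspg4 and Gpr17 differed by -0.09 ± 0.10, 0.03 ± 0.11 and 0.25 ± 0.20. Endothelial markers moved with the comparison: 5 of 10 were called higher, and the list summed to 268 to 291 RPM in sham ozone and 319.9 to 402 RPM in ADREX ozone. Their part was not tested.

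The count of 11 in hypothalamus fell to 4 without ADREX ozone 83, to 5 without sham ozone 17, sham ozone 19 or ADREX ozone 81, to 6 without sham ozone 20 and to 7 without ADREX ozone 82. Ugt8 was lost without sham ozone 17 or 19, or ADREX ozone 81, 83 or 84 (adjusted p 0.0522 to 0.106). Tspan2 was lost without sham ozone 17, 19 or 20, or ADREX ozone 81, 83 or 84 (adjusted p 0.0521 to 0.123), Mal without sham ozone 17, 19 or 20, or ADREX ozone 82 or 83 (adjusted p 0.056 to 0.0626), and Ndrg1 without sham ozone 17, 19 or 20, or ADREX ozone 81, 82 or 83 (adjusted p 0.0785 to 0.125). Ermn was lost without sham air 4, or sham ozone 17, 18 or 20, or ADREX air 65, or ADREX ozone 81, 82 or 83 (adjusted p 0.0518 to 0.136), and Mog without sham air 1 or 4, or sham ozone 18, 19 or 20, or ADREX air 65 or 67, or ADREX ozone 81, 83 or 84 (adjusted p 0.0512 to 0.132). Cnp kept its call without sham ozone 20 or ADREX ozone 84 and lost it without sham air 1, 2, 3 or 4, or sham ozone 17, 18 or 19, or ADREX air 65, 66, 67 or 68, or ADREX ozone 81, 82 or 83 (adjusted p 0.0522 to 0.144). Without the libraries that stand apart, Ugt8 and Mog were lost (adjusted p = 0.0649 and 0.108). Sox10 was called without sham ozone 18 (0.57, adjusted p = 0.00569) and Olig2 without ADREX ozone 84 (0.65, adjusted p = 0.0373). Scaling on the listed genes gave 3 higher (Opalin, Car2, Fa2h) and 7 lower, and fitting the compared groups alone gave 5 calls, of which Opalin, Car2 and Fa2h were kept and Nkx6-2 and Pllp were added. Those 2 settings ended the Gpr37 call (adjusted p = 0.0644 and 0.119). Both settings also ended the calls of Cnp, Ermn, Mog, Tspan2 and Ugt8, and the second those of Mal and Ndrg1. Over all alternatives the adjusted p ranged over 0.00711 to 0.512 for Cnp, 0.00506 to 0.513 for Mog and 0.00142 to 0.523 for Ugt8, whose calls were also lost without the liver-rich libraries.

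In brainstem under ozone, 5 members were called higher in ADREX than in sham rats (Opalin, Cnp, Car2, Erbb3 and Lpar1) and none lower, beside 2.44% of all genes called (1.19% higher and 1.25% lower). The members' median was 0.21 log2 beside -0.0045 over all genes, with 27 of 34 above 0 and 14 passing at an unadjusted p under 0.05, beside 11.2% of genes. In 9 members every ADREX library was above every sham library and in 3 every one was below, beside 3.78% and 3.51% of genes. Opalin read 2126, 1924, 2032 and 1942 in sham ozone and 2291, 3858, 3942 and 4079.9 in ADREX ozone. ADREX ozone 81 lay near the sham range while the other ADREX libraries were nearly level with each other, and Opalin rose by 0.78 ± 0.15 (adjusted p = 0.0058), or by 0.98 without ADREX ozone 81 (adjusted p = 2.07e-06). Cnp read 14091, 14625, 13479.5 and 12791 in sham ozone and 17710.2, 20571, 17848 and 20202 in ADREX ozone, without overlap, and rose by 0.47 ± 0.09 (adjusted p = 0.00964).

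Among receptors and enzymes, Car2 read 2077, 1888, 2008 and 1929 in brainstem sham ozone and 2431, 2807, 2749 and 2467 in ADREX ozone, without overlap, and rose by 0.40 ± 0.08 (adjusted p = 0.00964). Erbb3 read 429, 548, 413 and 379 in sham ozone and 799, 581, 571 and 637 in ADREX ozone, without overlap, and rose by 0.55 ± 0.12 (adjusted p = 0.0189). Lpar1, a receptor for the lysophosphatidic acid that Enpp2 makes, read 1227, 1238, 1286 and 1131 in sham ozone and 1574, 1532, 1474 and 1649 in ADREX ozone and rose by 0.35 ± 0.08 (adjusted p = 0.0243), without overlap. In hypothalamus Lpar1 differed by 0.18 ± 0.07 (adjusted p = 0.325), and the gap between the tissues was not tested. The nearest uncalled members were Olig1 (-0.44 ± 0.12, adjusted p = 0.0609), Fa2h (0.47 ± 0.13, 0.0899) and Enpp6 (0.49 ± 0.14, 0.0916). Mbp, Mag, Mog and Myrf differed by 0.03 ± 0.17, 0.09 ± 0.12, 0.07 ± 0.13 and 0.0006 ± 0.08. Olig2, Sox10, Ndrg1 and Enpp2 differed by 0.18 ± 0.11, 0.35 ± 0.13, -0.13 ± 0.07 and 0.27 ± 0.11, and the precursor genes Pdgfra, Cspg4 and Gpr17 by 0.03 ± 0.13, 0.09 ± 0.16 and 0.37 ± 0.22. Of 10 endothelial markers 6 were called higher, and the list summed to 339 to 419.8 RPM in sham ozone and 506 to 581 RPM in ADREX ozone. Their part was not tested.

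The brainstem count of 5 became 9 without ADREX ozone 81 and 3 without sham ozone 17 or sham ozone 20. Erbb3 lost its call without sham ozone 17, 19 or 20 (adjusted p 0.0622 to 0.0861), and Lpar1 without sham ozone 17, 18 or 20, or ADREX ozone 84 (adjusted p 0.0522 to 0.109). Fitting the compared groups alone left 0 calls (Opalin at an adjusted p of 0.0793), and scaling on the listed genes left Opalin higher and made Mal, Ndrg1 and Olig1 lower. Cnp also lost its call with no filter on low values (adjusted p = 0.0861), and Lpar1 without the liver-rich libraries (adjusted p = 0.0522). Sox10 was called without sham ozone 18 (0.51, adjusted p = 0.0195).

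**Figure D4:**
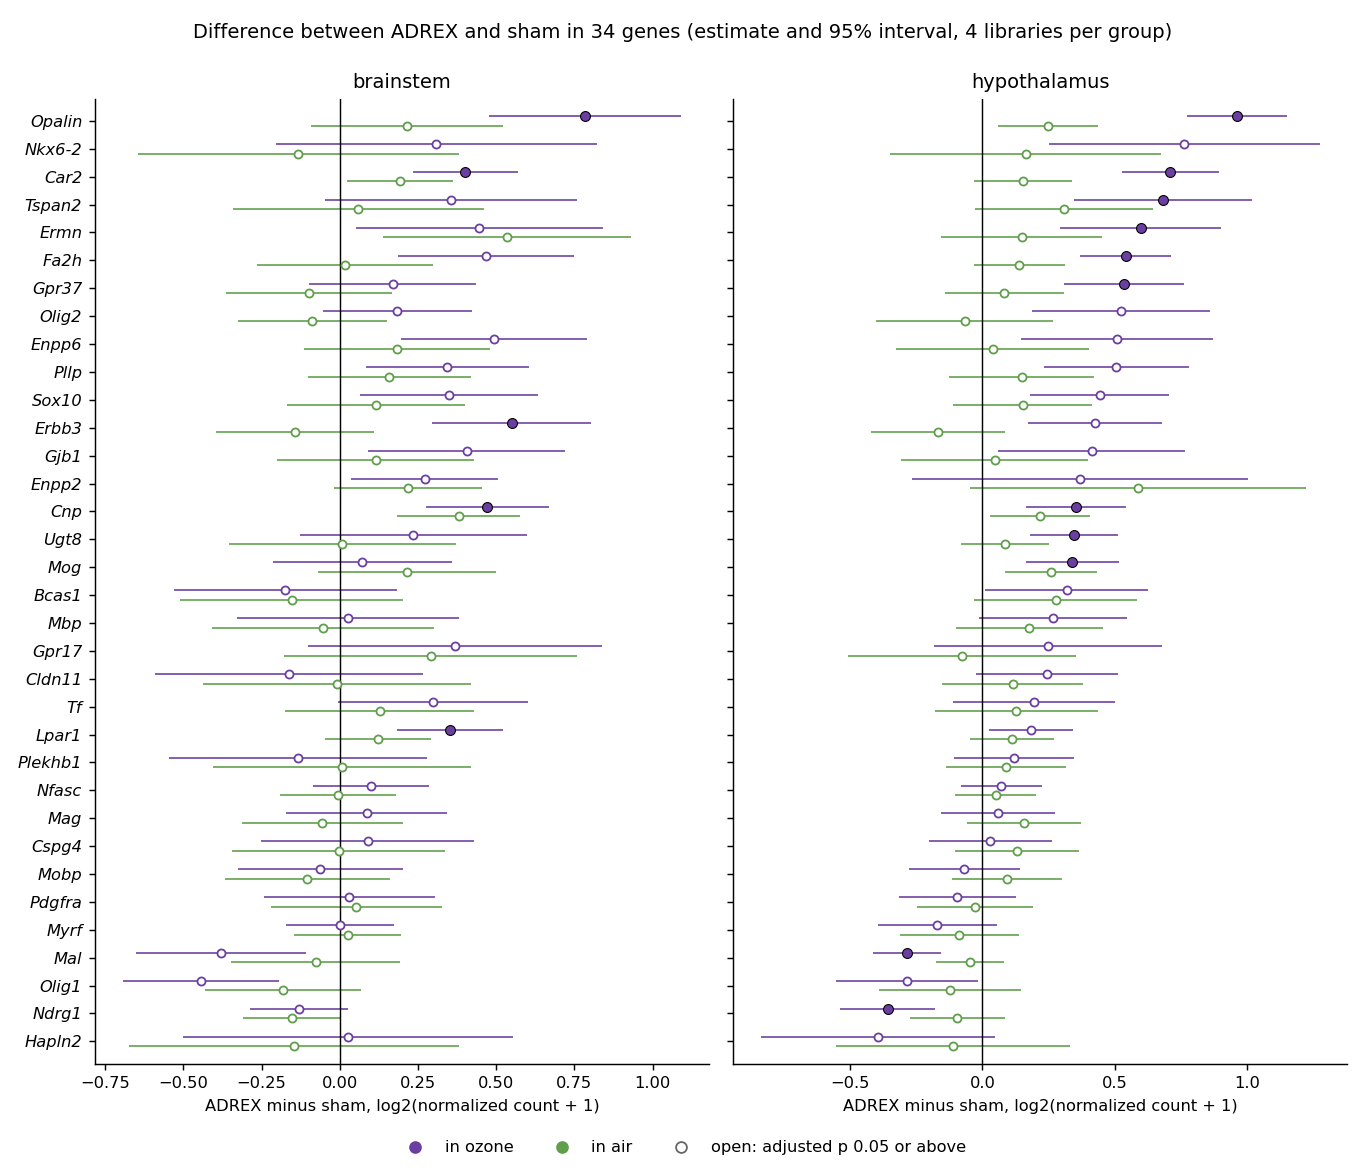
ADREX minus sham for the 34 genes in ozone (purple) and in air (green), by tissue (x axis, log2(normalized count + 1); points are estimates, bars 95% intervals, filled points adjusted p under 0.05). Filled points are all in ozone, 5 in brainstem and 11 in hypothalamus, and Opalin is the highest in both.

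Brainstem ADREX ozone 81 stood apart in both directions. Against the other libraries of its group, 9 members lay more than 0.5 log2 below and 5 more than 0.5 above. Of all genes, 45.3% lay past 0.5 in either direction. The median absolute deviation was 0.44 log2 over the members and 0.45 over all genes, so the deviation was not particular to the members. Cldn11, the tight junction claudin of myelin, read 4392 there (-1.24 log2 from the rest), Plekhb1 3845 (-1.14) and Tspan2 2088 (-1.12). Ugt8 (-0.87), Mbp (-0.83), Opalin (-0.79) and Mog (-0.74) were also low. In the opposite direction, Hapln2, a link protein of the node of Ranvier, read 1464 (1.41), Tf, the iron carrier, 23818 (0.69), and Cspg4 432 (0.71). In hypothalamus ADREX ozone 84, 3 members were above and 1 below by more than 0.5, beside 28.5% of all genes in either direction. The median absolute deviation there was 0.19 over the members and 0.30 over all genes. Mbp read 67154, Cldn11 7817 and Tspan2 5333 in that library, among the genes lowest in the brainstem one. Across the 34 genes, the sizes in both libraries are in the plot of deviations.

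**Figure D5:**
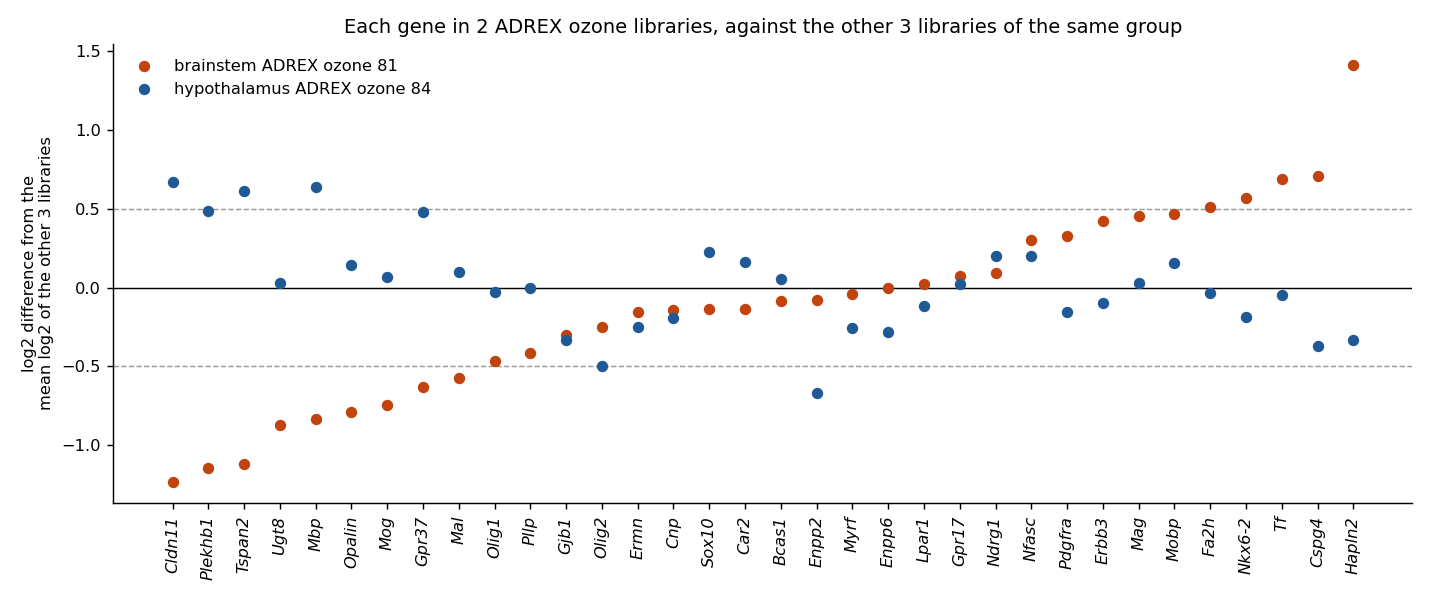
Deviation of the 34 genes in brainstem ADREX ozone 81 and hypothalamus ADREX ozone 84 from the mean of the other 3 libraries of their group (log2 of normalized count + 1). Cldn11 and Plekhb1 are lowest in brainstem ADREX ozone 81 and Hapln2 is highest.

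In hypothalamus, Enpp2 and Tf were highest in libraries that also carried transcripts of other tissues. Enpp2 is also made in choroid plexus, and in hypothalamus it read 3595, 3540.0, 10317 and 3815 in ADREX air and 3330.0, 6521, 3840.2 and 2749.5 in ADREX ozone. The high libraries, ADREX air 67 and ADREX ozone 82, read 5258 and 2301 for Ttr, the transthyretin of choroid plexus, whose marker list ran from 20.5 to 965 RPM over hypothalamus libraries. Tf is also made in liver, and in hypothalamus it read 5865, 9232, 5798 and 6192 in sham air and 6095, 6847, 7101 and 9354 in ADREX air. The high ones, sham air 2 and ADREX air 68, are both liver-rich, but liver-rich sham ozone 18 read 6822. In brainstem, Tf was highest in ADREX ozone 81 (23818, liver list 88.0 RPM), while liver-rich sham ozone 18 read 16725. Brainstem Enpp2 was highest in ADREX ozone 84 (10082, choroid plexus list 11.9 RPM), while ADREX air 68 read 9958 (282 RPM). The part of these tissues in Enpp2 and Tf was not tested, and neither gene was called in any comparison within a tissue.

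Other genes of the lineage were called in the same comparisons. Their list was written with earlier results of these data known, so these calls describe the genes and are not separate support. Of 61 further oligodendrocyte and myelin genes listed, 59 were tested. In sham brainstem 1 rose after ozone (Aspa, 1.24 ± 0.17, adjusted p = 0.00109) and 2 fell (Rasgrp3, -1.26 ± 0.09, 3.74e-07, and Nipal4, -0.88 ± 0.17, 0.0155). Of all genes, 0.583% were called higher and 0.396% lower in that comparison, and 0.946% and 0.642% in sham hypothalamus. In sham hypothalamus 2 rose and 5 fell, led by Aspa (1.50 ± 0.12, adjusted p = 2.42e-06), Rasgrp3 (-1.05 ± 0.10, 1.08e-05), Cryab (1.13 ± 0.11, 1.73e-05) and Elovl7 (-0.98 ± 0.13, 0.000679). Aspa, which splits N-acetylaspartate and supplies acetate for lipid synthesis, read 267, 316, 286 and 321 in hypothalamus sham air and 950.0, 639.9, 906 and 921 in sham ozone, without overlap. Rasgrp3, a Ras activator, read 584, 546, 579 and 572 in sham air and 257, 337, 246 and 266 in sham ozone, also without overlap. Under ozone, ADREX minus sham gave 6 higher and 3 lower in brainstem, beside 1.19% and 1.25% of all genes. It gave 7 higher and 3 lower in hypothalamus, beside 1.04% and 1.2%. For Rasgrp3 and Aspa the ozone response differed between ADREX and sham rats, in brainstem (Rasgrp3 1.24 ± 0.12, adjusted p = 3.70e-05, and Aspa -1.51 ± 0.24, 0.00856) and in hypothalamus (0.99 ± 0.14, 0.00305, and -1.37 ± 0.17, 0.000744). Of the other listed precursor genes, 1 was called after ozone in sham rats, Neu4 in hypothalamus (0.65 ± 0.16, adjusted p = 0.0463), and under ozone Matn4 and Susd5 were called higher in ADREX than in sham brainstem (0.92 ± 0.20 and 1.11 ± 0.28, adjusted p = 0.0212 and 0.0432). Between tissues 53 of the 59 were called lower in hypothalamus and 5 higher, beside 26.9% and 27.1% of all genes. Of the 5, Tcf7l2, a transcription factor that thalamic and other neurons also carry, was higher by 3.78 ± 0.17.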

How the data were processed

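mRNA-seq values came from 1 table of 22587 genes and 32 libraries that the authors deposited as normalized counts, a signal scale that is not raw reads. The submitters' processing notes name Partek, DESeq2 and rn6 without roles or versions, while aligner and annotation were not given in the sources used here. Values were whole multiples of a library's step in 100% of cases (tolerance 0.001), which gave back whole reads and library depth. For hypothalamus ADREX air 66 a second check of the steps did not accept this, so its depth, RPM and recovered reads are less certain. No column was left unused, and 450 genes were 0 everywhere.

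Values were tested as log2(value + 1) with limma 3.58.1 (R 4.3.3, empirical Bayes with a trend) over genes with a mean of at least 10, with Benjamini-Hochberg adjustment over all genes tested and a threshold of 0.05. The 4 groups of a tissue (16 libraries) shared 1 fit, and both tissue comparisons used all 32. edgeR 4.0.16 (quasi-likelihood) and DESeq2 1.42.0 on the recovered reads were alternatives. They called 134 and 237 genes for ozone in sham brainstem and 235 and 412 in sham hypothalamus, beside 141 and 230 by limma. Other alternatives were the pseudocount (0.5 and 5), the filter (none and 50), TMM and quantile rescaling, scaling on the listed genes, sample weights, the compared groups alone, leaving out liver-rich libraries and leaving out each library. Scaling on the listed genes centres the members in each library, so it takes out any shift they share. Leaving out the libraries that stand apart was added after seeing the data.

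The members and lists were chosen with earlier results of these data known. All called members were named, with 12 genes given whatever their p (Mbp, Mag, Mog, Cnp, Myrf, Olig2, Sox10, Pdgfra, Cspg4, Gpr17, Ndrg1, Enpp2), and the 3 smallest p-values where none was called. Of the further lineage genes, those called with the 4 smallest p-values per comparison were eligible. Libraries with a number shared between tissues (16 pairs) were not treated as pairs, since the labels do not say that a number marks an animal. No libraries were identical. Promoters came from RefSeq (GRCr8), and no coordinates of rn6 were used. Percentages of reads and RPM are over reads assigned to genes and cover counting error only in their precision.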

Additional observations from a re-analysis of the deposited data

Results flagged for a closer look

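In 272 sets of 4 libraries (34 genes in 8 groups), 26 had a highest or lowest library far from the rest by Dixon's criterion. A rate of 5% over independent sets would give 13.6, but the genes share libraries. The rate over all genes was not counted, so an excess is not shown to be particular to the members. Of the 26, brainstem ADREX ozone 81 held 5, with Mag high at 8404, Hapln2 high at 1464, and Mog (2749), Opalin (2291) and Cldn11 (4392) low. In the other brainstem groups, Mbp read 144578, Gpr37 5141 (both sham air 3), Car2 2848 (sham air 1) and Cspg4 334 (sham air 4), all high. Brainstem Olig1 was high at 1182 (sham ozone 19) and Sox10 at 755 (sham ozone 18). In brainstem ADREX air, Mag was high at 6449.8 (library 68), Cnp at 21392 (library 67) and Ermn at 5805 (library 65), while Pllp was low at 1050.0 (library 67) and Erbb3 at 592 (library 66).

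In hypothalamus, sham air 2 was high for Gjb1 (200.3) and Tf (9232), and sham ozone 18 was high for Gjb1 (143) and low for Hapln2 (191). Both of these libraries are liver-rich. ADREX air 67 was high for Enpp2 (10317), ADREX air 66 low for Tspan2 (2199.9) and ADREX air 68 low for Nfasc (3715), a cell adhesion protein of node and paranode. In hypothalamus ADREX ozone, Fa2h was high at 283 (library 81), Tf at 7285 (library 83), and Mog was low at 2002 (library 82).

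Hypothalamic Opalin had ozone responses of opposite sign in the ADREX rats (0.36 log2) and the sham rats (-0.35), with no overlap between ozone and air libraries in either. Neither response was called by itself. The difference of 0.71 between the responses passed limma's test across all genes. That call was kept in 7 of 16 fits that left out 1 library and was lost with scaling on the listed genes.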

How the results depend on the processing

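The 32 tissue calls were kept in all 32 fits that left out 1 library (32 to 32 calls) and in every alternative but scaling on the listed genes. Because that scaling centres the members on 0, a mix of signs among them follows from the scaling itself. That scaling gave differences between hypothalamus and brainstem of the opposite sign in 16 members: Bcas1 0.013, Car2 0.78, Cldn11 0.036, Erbb3 0.48, Gpr17 0.66, Gpr37 0.19, Mal 0.46, Myrf 0.0099, Nfasc 0.46, Olig1 0.37, Olig2 0.28, Opalin 0.55, Sox10 0.14, Tspan2 0.69, Pdgfra 0.96 and Cspg4 0.94 log2. For ozone in sham brainstem, with 3 calls, scaling on the listed genes gave 0 and sample weights 7, and leaving out 1 library gave 0 to 4. For ozone in sham hypothalamus, with 5 calls, sample weights gave 13, DESeq2 9, leaving out liver-rich libraries 3, the compared groups alone 3, and leaving out 1 library 1 to 6. For ADREX minus sham in ozone, brainstem had 5 calls against 12 with sample weights, 8 with DESeq2, 9 without the libraries that stand apart, 0 with the compared groups alone and 3 to 9 without 1 library. Hypothalamus had 11 against 19 with sample weights, 5 with the compared groups alone and 4 to 11 without 1 library. For the difference between responses, brainstem had 0 calls against 2 with sample weights, 1 with DESeq2, 1 without liver-rich libraries, 1 without the libraries that stand apart and 0 to 1 without 1 library. Hypothalamus had 1 against 0 with scaling on the listed genes, 3 with sample weights, 2 with DESeq2, 2 without liver-rich libraries, 2 without the libraries that stand apart and 0 to 2 without 1 library. ADREX minus sham in brainstem air went from 0 to 1 with DESeq2 (Cnp). The number of all genes called differed between methods too, as given above for ozone in sham rats. A change in a member count is therefore not shown to be particular to the members. The cause of these changes was not tested. Ozone in ADREX rats, ADREX minus sham in hypothalamus air and the tissue difference in the sham ozone response stayed at 0 in all settings.

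With a replicate block over the numbers shared between tissues, the tissue comparison still gave 32 calls and the difference in sham ozone response 0. The labels do not say whether a shared number marks an animal. Correlations of deviations ran from -0.53 to 0.61 over 16 pairs (median 0.031). Of these, 7 were over 0.1, and 4 libraries correlated best with their own number. Number 18 was liver-rich in both tissues, while 2 and 68 were so in hypothalamus alone. Such values cannot show that the tissues came from separate animals, so results of the tissues may not be independent. Within a tissue no number is shared between groups. The compared groups alone could not be run for the differences between responses or the tissue comparisons. With 4 libraries a group, the widest 95% half-interval of a member was 0.53 log2 in brainstem and 0.63 in hypothalamus. For the difference between responses it was 0.75 and 0.90 in each. A half-interval is not a limit of detection. A call needed an adjusted p over all genes, so changes larger than a gene's own half-interval could also go uncalled.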
